A study of Mus musculus with 904 samples.

Results

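The genes described here are 9 subunits of voltage-gated potassium channels, 7 of the Eag family (Kcnh1, Kcnh2, Kcnh3, Kcnh4, Kcnh5, Kcnh7 and Kcnh8) and the silent subunits Kcng1 and Kcnv1, out of 32285 genes in the count table. They were chosen by name, with earlier results of these nuclei known, and were followed through 6 classes of nuclei that were chosen by the measured levels of other genes. Nuclei with 1000 or more detected genes and 10000 or more reads entered, 835 of 904. Levels are given as CPM, the reads of a gene scaled to a library of 1000000 reads. Striatal projection nuclei had Rgs9 of at least 20 CPM and Slc17a7 under 20 CPM (214 nuclei), and excitatory nuclei had Slc17a7 of at least 50 CPM (134 nuclei). Sst nuclei had Sst of at least 100 CPM (114 nuclei), and Pvalb nuclei had Pvalb of at least 20 CPM with Sst under 100 CPM (92 nuclei). Astrocyte and oligodendrocyte nuclei had Aqp4 or Mog of at least 20 CPM (35 and 37 nuclei). The 92 nuclei that met 2 or more gates were left out of the classes, and 117 nuclei met none. The striatal projection and excitatory gates exclude each other, as do the Sst and Pvalb gates. Mixtures of these pairs could therefore not be left out in this way: excitatory nuclei had no limit on Rgs9, and Sst nuclei none on Pvalb.

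The nuclei came from C57Bl/6J mice injected in young adulthood with PHP.eB virus at 5e11 vg per mouse. They were sorted as single YFP-positive nuclei 3 to 4 weeks later and profiled with SMART-Seq v4, a full-length method without molecular identifiers. Every mouse carried a transgene driven by DLX2.0, an enhancer derived from the Dlx5/6 region that is used to mark forebrain GABAergic interneurons, and there was no uninjected group. The titles name 16 constructs of 40 to 96 nuclei each. Of these, 12 carry a sequence named BORG, 3xBORG, 3xsmOPT, U7snRNAOPT, 3xU7snRNAOPT or U7snRNAOPT-3'box on 1 side of SYFP2-H2B (upstream or downstream), and the other 4 are SYFP2-10aa-H2Bmod, SYFP2-P2A-3XFLAG-H2B with or without SIRLOIN, and dTomato-H2B, whose nuclei are also titled YFP-positive. Summed reads of 1 construct and 1 class were the sample, and no label names an animal, so p-values measure only the spread between such sums, which may share animals.

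All nuclei used here are labelled primary visual cortex, although the series also describes sorts from motor cortex and striatum. The striatal projection nuclei go against that label: they were the class with the highest level of all 9 striatal markers other than the gate gene, and the summed level of the 10 markers was 10399 CPM there, against 343 to 1143 CPM in the other 3 neuronal classes. Excluding gate genes, the defining markers were highest in their own class for 4 of 5 Sst, 3 of 5 Pvalb, 5 of 6 excitatory, 5 of 5 astrocyte and 5 of 5 oligodendrocyte genes. Excitatory nuclei held 21.6 CPM of Gad1, against 362 CPM in striatal projection, 488 CPM in Sst and 1143 CPM in Pvalb nuclei. Kept nuclei held 30023 to 719419 reads (median 260274), and the class medians lay between 233164 reads (excitatory) and 325977 reads (oligodendrocyte). The libraries came in 3 pools named S40317, S40325 and S40327, of 106, 367 and 362 kept nuclei, and S40317 held no striatal projection nucleus. No 2 libraries held identical values (0 identical).

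Voltage-gated potassium channels open when the membrane depolarises and let potassium leave the cell, which ends action potentials and sets how readily a neuron fires again. The Eag family has 3 branches. Eag channels (Kv10: Kcnh1, Kcnh5) activate without inactivating much, Erg channels (Kv11: Kcnh2, Kcnh6, Kcnh7) inactivate quickly and pass most current as they recover, and Elk channels (Kv12: Kcnh3, Kcnh4, Kcnh8) open below the spike threshold. Silent subunits such as Kcng1 (Kv6.1) and Kcnv1 (Kv8.1) form no working channel alone and change the gating of Kv2 subunits when they assemble with them. In sums of at least 5 nuclei, striatal projection and Pvalb nuclei did not overlap for Kcnh7, lower in striatal projection, or for Kcnh4, higher there. Striatal projection sums did overlap Sst sums for Kcnh7 and excitatory sums for Kcnh4. The share of all genes without overlap between 2 classes was not counted, so these separations are a description. Kcnh2 had its highest class levels in the 2 interneuron classes, though without a called difference. The promoters of these 3 genes are shown.

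Of the 9 genes, 6 were in the promoter table of RefSeq (GRCm38.p6), and the stretch before the first exon base is given 5′ to 3′ on the gene's strand, with GC boxes (GGGCGG, both strands, so also CCGCCC) and CCAAT boxes (CCAAT, both strands, so also ATTGG) in capitals. Kcnh4 lies on the minus strand with 86 bases printed (chr11:100759943-100760028), Kcnh7 on the minus strand with 250 bases (chr2:63184288-63184537), and Kcnh2 on the minus strand with 250 bases (chr5:24329592-24329841). The Kcnh2 window lies in an intron of the longest GENCODE M21 transcript, upstream of a shorter one.
Kcnh4: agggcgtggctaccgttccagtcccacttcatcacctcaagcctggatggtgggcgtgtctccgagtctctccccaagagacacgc
Kcnh7: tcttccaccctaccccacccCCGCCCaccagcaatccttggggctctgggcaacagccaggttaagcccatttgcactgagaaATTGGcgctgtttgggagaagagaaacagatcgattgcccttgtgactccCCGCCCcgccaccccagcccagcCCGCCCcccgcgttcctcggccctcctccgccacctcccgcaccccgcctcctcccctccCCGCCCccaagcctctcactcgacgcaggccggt
Kcnh2: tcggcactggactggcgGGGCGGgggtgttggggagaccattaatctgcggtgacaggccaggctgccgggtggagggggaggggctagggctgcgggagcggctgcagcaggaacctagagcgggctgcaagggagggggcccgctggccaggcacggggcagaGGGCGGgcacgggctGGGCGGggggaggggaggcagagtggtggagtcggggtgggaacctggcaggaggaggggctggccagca
The Kcnh7 stretch held 4 GC boxes and 1 CCAAT box, the Kcnh2 stretch held 3 GC boxes, and the 86 bases of Kcnh4 held neither motif. In the 250 bases before its start, Kcnh4 held 1 GC box and 0 CCAAT boxes. Of all 32851 promoters of the same table, 32.7% held a GC box and 33.8% a CCAAT box in the 250 bases before the start. The sequence CG occurred 20 times in the 250 bases before the start in Kcnh4, 16 times in Kcnh7 and 14 times in Kcnh2, against a median of 6 over all promoters. All 3 windows were therefore richer in CG than most promoters, although the genes differed in where they were read.

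**Figure D1:**
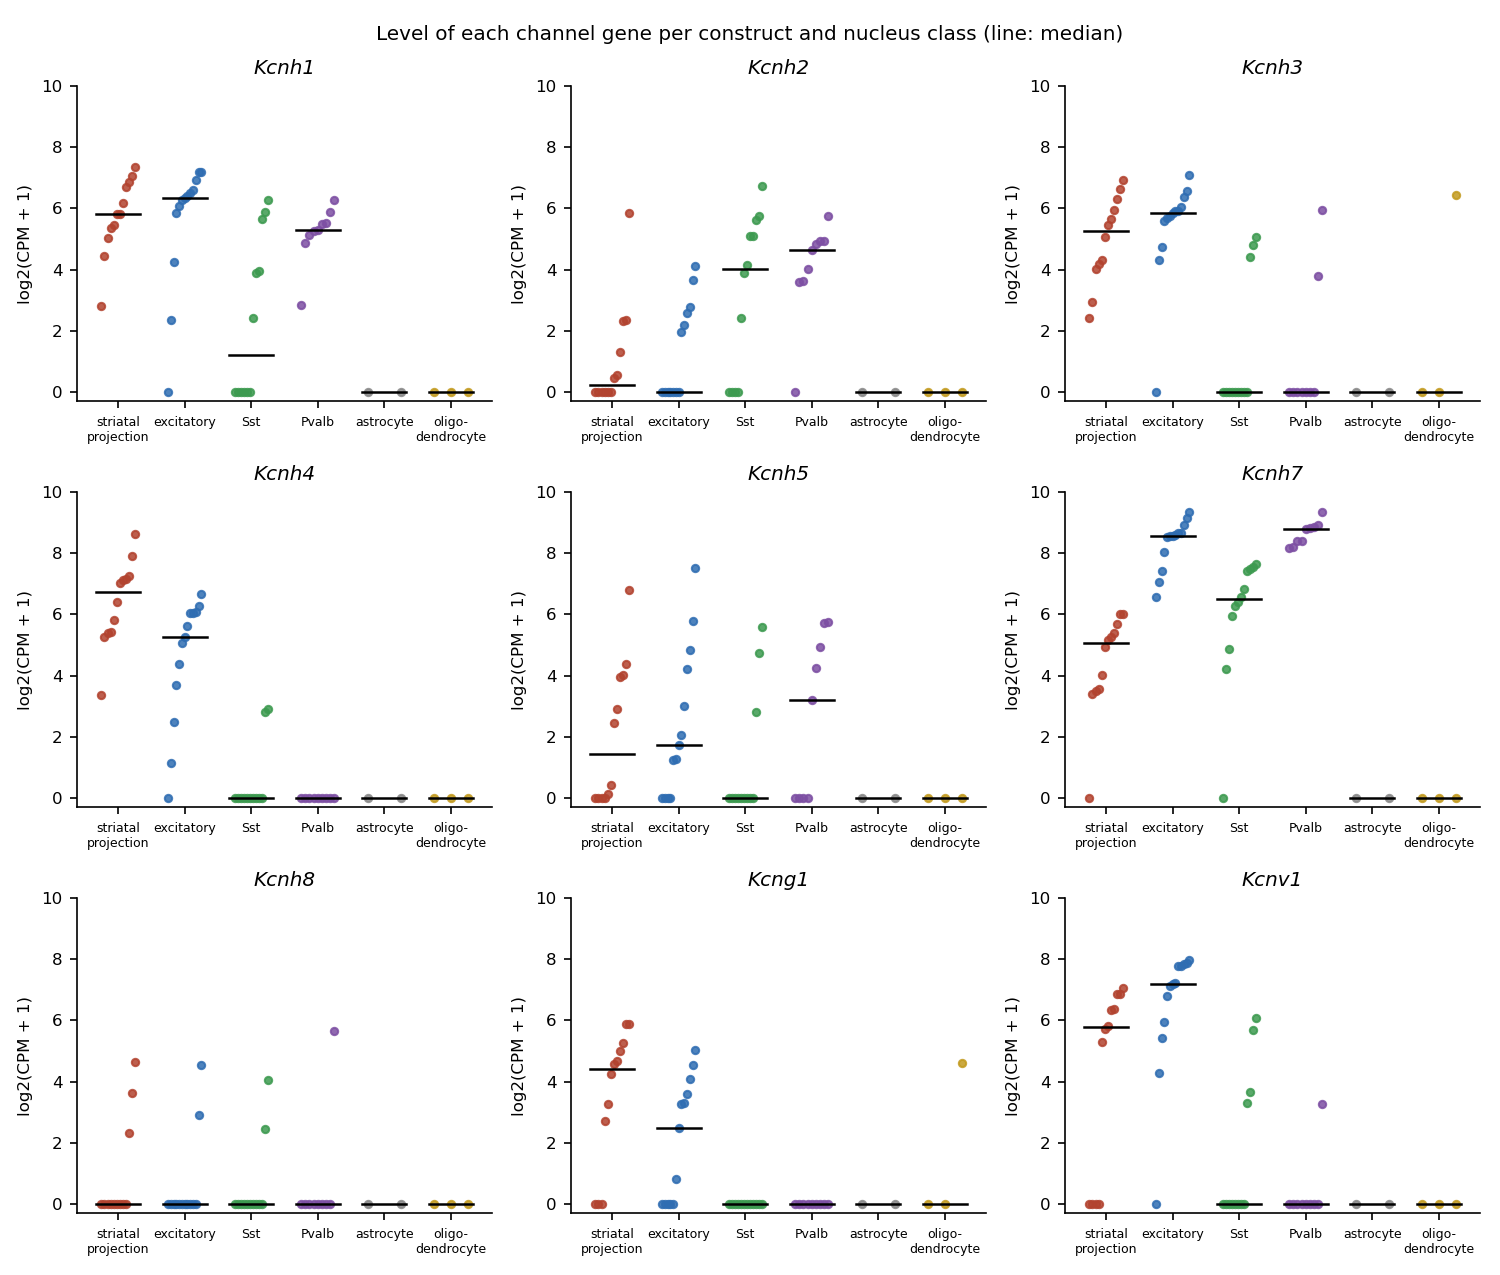
Level of each of the 9 genes (log2 of CPM plus 1, vertical axis) in each class of nuclei. Each point is the sum of 1 construct with at least 5 nuclei of the class (12 striatal projection, 13 excitatory, 12 Sst, 9 Pvalb, 2 astrocyte and 3 oligodendrocyte sums), and the line is the median. Kcnh7 points are high in excitatory and Pvalb sums, and Kcnh4 points lie at 0 in all Pvalb sums and at no more than 6.54 CPM in Sst sums.

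Between the neuronal classes, Kcnh7 was called lower in striatal projection than in excitatory and Pvalb nuclei, and all other calls were of genes higher in striatal projection or excitatory nuclei than in an interneuron class. A call is an adjusted p under 0.05 (edgeR quasi-likelihood test on sums per construct and class, Benjamini-Hochberg over 16488 genes). In striatal projection against excitatory nuclei 1 of 9 was called, lower, where 3.09% of all genes were called, and the median log2 fold change was -0.13 for the 9 and -0.21 for all genes. Against Sst nuclei 3 of 9 were called in striatal projection nuclei, all higher, with 5.53% of all genes called and medians of 3.64 and 0.18. Against Pvalb nuclei 5 of 9 were called, 4 higher and 1 lower, with 4.76% of all genes called and medians of 2.66 and 0.18. Excitatory nuclei had 4 of 9 called against Sst nuclei, all higher, with 3.06% of all genes called and medians of 3.43 and 0.41. Against Pvalb nuclei they had 3 of 9 called, all higher, with 2.94% of all genes called and medians of 1.21 and 0.41. These medians are the same when a class with no reads is set to 3 counts. The edgeR test called 0 of 9 between Pvalb and Sst nuclei, where 0.479% of all genes were called, with 3 of 9 at an unadjusted p under 0.05, 2 called by DESeq2, and a median of 0.04 against -0.02 (0.14 over the 8 genes with reads in either class, bounds included). Since all 4 classes enter several of these comparisons, the comparisons share samples.

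Kcnh7 (Erg3, chr2:62693414-63184287, minus strand), an Erg subunit of neurons, was high in excitatory and Pvalb nuclei and low in striatal projection nuclei. Over 12 striatal projection sums it ranged from 0 to 64.2 CPM (median 32.3), and over 13 excitatory sums from 93.2 to 653 CPM (median 379). In 12 Sst sums it ranged from 0 to 201 CPM (median 89.1), and in 9 Pvalb sums from 284 to 657 CPM (median 437). These striatal projection sums therefore did not overlap either the excitatory or the Pvalb sums, and the Sst sums, with a median between, lay below every Pvalb sum. Smaller sums, which were left out, broke this separation. Striatal projection nuclei of 3xBORG-SYFP2-H2B held 220 CPM (3 nuclei). Excitatory nuclei of SYFP2-P2A-3XFLAG-H2B-SIRLOIN held 71.4 CPM (4 nuclei), and Pvalb nuclei of SYFP2-H2B-3xsmOPT held 13.9 CPM (4 nuclei). Over all nuclei of a class the level was 31.4 CPM in striatal projection, 348 CPM in excitatory, 99.9 CPM in Sst and 391 CPM in Pvalb nuclei, a ratio of 11.1 between excitatory and striatal projection nuclei.

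Kcnh7 was lower in striatal projection than in excitatory nuclei in 9 of 9 constructs (fitted log2 fold change -3.93 ± 0.65 SE, adjusted p = 2.68e-05). It was also lower than in Pvalb nuclei in 6 of 6 constructs (-3.96 ± 0.69, adjusted p = 4.21e-05). Against Sst nuclei it was lower in 9 of 10 constructs, short of the threshold (-1.74 ± 0.60, adjusted p = 0.0774). Excitatory nuclei exceeded Sst nuclei in 8 of 9 constructs (2.19 ± 0.63, adjusted p = 0.0333), a call that was lost in 6 of the 9 fits that left out 1 construct (adjusted p up to 0.0940): 3xU7snRNAOPT-SYFP2-H2B, SYFP2-H2B-3xBORG, SYFP2-H2B-U7snRNAOPT-3'box, U7snRNAOPT-3'box-SYFP2-H2B, SYFP2-P2A-3XFLAG-H2B or dTomato-H2B. Pvalb nuclei were above Sst nuclei in 8 of 8 constructs, with no overlap among sums of at least 5 nuclei, but the difference did not pass over all genes (2.23 ± 0.65, adjusted p = 0.114). Excitatory and Pvalb nuclei had a fitted difference of -0.03 ± 0.73 (adjusted p = 1), so neighbours at the top of the order did not differ beyond their spread.

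The number of genes detected per nucleus also differed between the classes, with medians of 3482 in excitatory, 3263 in Pvalb, 3003 in Sst and 2560 in striatal projection nuclei, and its part in the shares was not tested. Reads of Kcnh7 were found in 85.1% of excitatory nuclei, 78.3% of Pvalb nuclei, 37.7% of Sst nuclei and 21.03% of striatal projection nuclei, and, with each nucleus thinned to 30000 reads (no nucleus was shallower), in 79.1%, 75%, 33.3% and 16.4%. Glial nuclei, taken as the background for a neuronal channel, had it in 3 of 35 astrocyte and 1 of 37 oligodendrocyte nuclei. Their median depth of 286357 and 325977 reads was above that of the neuronal classes. Their median numbers of detected genes, 1622 and 1144, were below those of the neuronal classes. The gene spans 490874 bases and overlaps Gca, an antisense RNA (Gm13569) and a small nucleolar RNA (Gm22020), and whether introns and strand were used in counting is not given in the sources used here, so reads from these partners cannot be told apart.

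Kcnh4 (Elk1, chr11:100740376-100759942, minus strand), an Elk subunit known from the forebrain, ran opposite to Kcnh7 between striatal projection and interneuron classes. Its 12 striatal projection sums held 9.23 to 392 CPM (median 107) and its 13 excitatory sums 0 to 101 CPM (median 37.7). In Sst nuclei 10 of 12 sums held no read, and the other two held 6.06 and 6.54 CPM. All 9 Pvalb sums were at 0. Each striatal projection sum was thus above every Sst and every Pvalb sum, while striatal projection and excitatory sums overlapped.

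Kcnh4 was higher in striatal projection than in Sst nuclei in 10 of 10 constructs (fitted log2 fold change 8.76 ± 1.46 SE, adjusted p = 2.02e-05), with 136 CPM against 0.88 CPM over all nuclei. It was 1092-fold higher in striatal projection than in Pvalb nuclei, taking 3 counts over the Pvalb class, and higher in 6 of 6 constructs (adjusted p = 1.1e-05). This ratio treats reads as independent, which reads without molecular identifiers are not, so it is no firm lower bound. Excitatory nuclei exceeded Sst nuclei in 8 of 9 constructs (7.87 ± 1.49, adjusted p = 0.000364), with 44.1 CPM. With the same 3 counts they were 354-fold above Pvalb nuclei (6 of 7 constructs higher and 1 with no read in either class, adjusted p = 4.43e-05). Striatal projection nuclei held 3.08 times the CPM of excitatory nuclei and were higher in 6 of 9 constructs, a difference that did not pass (0.89 ± 1.49, adjusted p = 0.911). Leaving out any 1 construct kept all 4 Kcnh4 calls.

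Of striatal projection nuclei 46.7% had a Kcnh4 read (exact 95% interval 39.9 to 53.7%), and of excitatory nuclei 28.4% (20.9 to 36.8%), or 41.6% and 23.1% after thinning. In Sst nuclei it was 2 of 114, and in Pvalb nuclei 0 of 92, which allows a share of up to 3.26% with 0 taken as 3 nuclei. Both interneuron classes were at or below the 1 of 37 seen in oligodendrocyte nuclei (2.703%). That 1 nucleus, with 74 reads of Kcnh4, also held all Kcnh7 (106) and Kcnh1 (46) reads of its class, so it is a weak measure of background. Intervals cover counting error only, since reads without molecular identifiers are not independent molecules. Markers of striatal projection nuclei moved with Kcnh4 across the classes: their summed level was 1143 CPM in excitatory, 662 CPM in Sst and 343 CPM in Pvalb nuclei, with Rgs9 itself at 36.997 CPM in excitatory, 0.34 CPM in Sst and 0 in Pvalb nuclei. Their part in the excitatory level of Kcnh4 was not tested. In pool S40317, with no striatal projection nucleus, excitatory nuclei held 25.002 CPM of Kcnh4, against 56.1 and 64.01 CPM in S40325 and S40327.

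**Figure D2:**
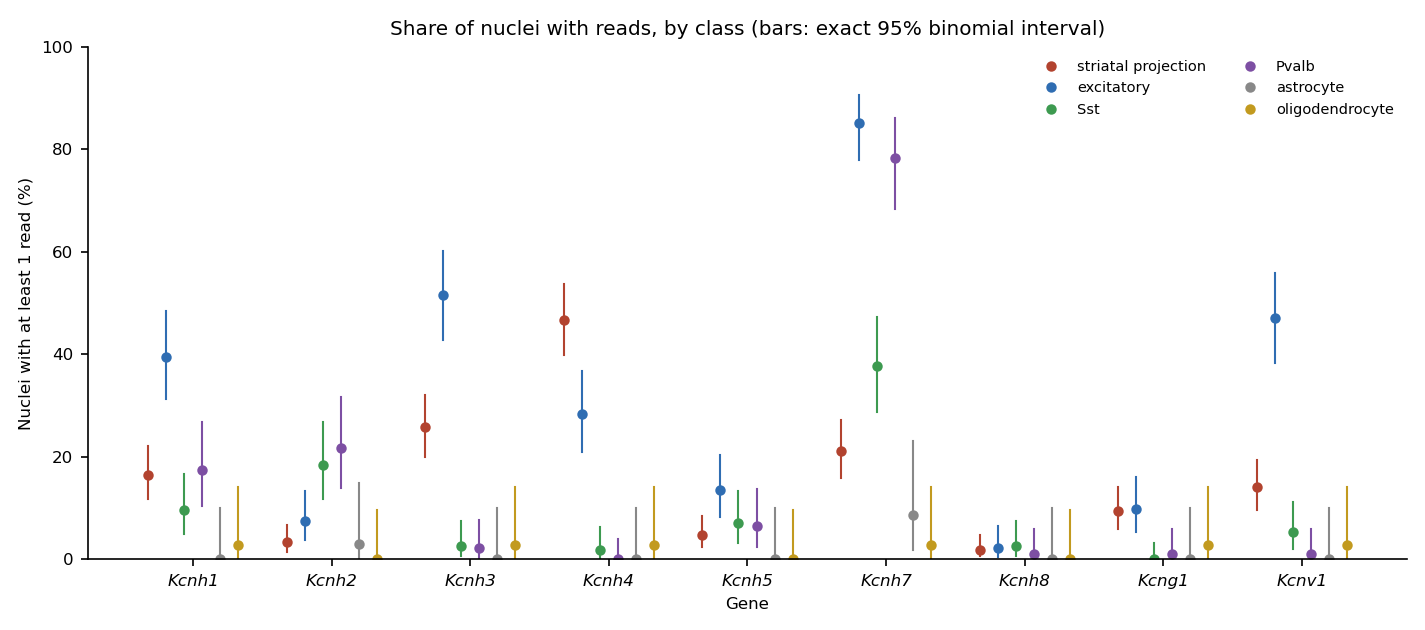
Share of nuclei with at least 1 read (vertical axis, percent) for each gene (horizontal axis) in the 6 classes; bars are exact 95% binomial intervals over nuclei. Kcnh7 reached 85.1% of excitatory and 78.3% of Pvalb nuclei, and Kcnh4 reached 46.7% of striatal projection nuclei against 0 of 92 Pvalb nuclei.

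The other Elk genes were Kcnh3 (Elk2, chr15:99224861-99242817, plus strand), whose channel is known to dampen the firing of hippocampal pyramidal neurons, and Kcnh8 (Elk3, chr17:52602709-52979194, plus strand). Like Kcnh4, Kcnh3 had a low level in interneurons and no called difference between striatal projection and excitatory nuclei (-0.64 ± 1.42, adjusted p = 0.948). Its striatal projection sums held 4.30 to 121 CPM (median 37.7) and its excitatory sums 0 to 135 CPM (median 56.9). In Sst nuclei 9 of 12 sums held no read and the other 3 held 20.1 to 32.5 CPM. In Pvalb nuclei 7 of 9 were at 0, and the remaining sums held 12.9 and 61.5 CPM, so a few interneuron sums overlapped the range of the other classes.

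Kcnh3 was higher in striatal projection than in Sst nuclei in 8 of 10 constructs (6.77 ± 2.01, adjusted p = 0.0276) and than in Pvalb nuclei in 5 of 6 (6.90 ± 2.02, adjusted p = 0.0275). In excitatory nuclei it was higher than in Sst nuclei in 8 of 9 constructs (7.41 ± 2.02, adjusted p = 0.0215) and than in Pvalb nuclei in 6 of 7 (7.54 ± 2.05, adjusted p = 0.0223). These fitted values exceed the ratios of the class levels, which were 7.21 for striatal projection over Sst and 9.51 for excitatory over Sst nuclei, since most interneuron sums held no read. The 4 calls were lost in 6 of 10, 2 of 6, 5 of 9 and 3 of 7 fits that left out 1 construct, with adjusted p up to 0.0832, 0.0821, 0.0651 and 0.0739, in each case including the fit without dTomato-H2B. The call against Sst nuclei in striatal projection nuclei was also lost without 3xU7snRNAOPT-SYFP2-H2B, SYFP2-10aa-H2Bmod, SYFP2-H2B-U7snRNAOPT-3'box, SYFP2-H2B-U7snRNAOPT or U7snRNAOPT-SYFP2-H2B, and the call against Pvalb nuclei without SYFP2-H2B-U7snRNAOPT. In excitatory nuclei the call against Sst nuclei was lost without SYFP2-H2B-3xBORG, SYFP2-H2B-U7snRNAOPT-3'box, U7snRNAOPT-3'box-SYFP2-H2B or U7snRNAOPT-SYFP2-H2B, and the call against Pvalb nuclei without SYFP2-H2B-3xBORG or U7snRNAOPT-3'box-SYFP2-H2B. Kcnh3 reads were in 51.5% of excitatory and 25.7% of striatal projection nuclei, against 2.63% of Sst and 2.17% of Pvalb nuclei, below the 1 of 37 oligodendrocyte nuclei with a read. Thinned to 30000 reads per nucleus the excitatory share was 36.6%. It shares 1 base with Mcrs1.

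Kcnh8 was scarce everywhere, with 1.48 to 3.99 CPM over the neuronal classes and reads in 4 of 214 striatal projection, 3 of 134 excitatory, 3 of 114 Sst and 1 of 92 Pvalb nuclei. No class comparison of Kcnh8 passed (adjusted p from 0.513 to 1 among neuronal classes).

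In the Eag branch, Kcnh1 (Eag1, chr1:192190774-192510159, plus strand) was read in all 4 neuronal classes without a called difference between them. Its sums held 6.09 to 163 CPM in striatal projection (median 55.3), 0 to 145 CPM in excitatory (median 80.7), 0 to 77.4 CPM in Sst (median 2.16) and 6.14 to 77.1 CPM in Pvalb nuclei (median 38.3). No read was found in 6 of 12 Sst sums, whereas every Pvalb and every striatal projection sum held some. The difference between striatal projection and Sst nuclei was the nearest to the threshold (7 of 10 constructs higher, 3.64 ± 1.37, adjusted p = 0.114). Kcnh1 overlaps Hhat on the opposite strand over 13449 bases, so part of its reads could belong to that gene.

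Kcnh5 (Eag2, chr12:74897220-75177332, minus strand) was sparse and uneven between constructs. It held 8.596 CPM in striatal projection, 19.3 CPM in excitatory, 8.54 CPM in Sst and 13.5 CPM in Pvalb nuclei. Single sums reached 110 CPM in striatal projection and 182 CPM in excitatory nuclei while their medians were 2.44 and 2.31 CPM. No class difference of Kcnh5 passed (adjusted p from 0.480 to 1 among neuronal classes).

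Kcnh2 (Erg1, chr5:24319589-24351604, minus strand), the Erg subunit best known from the heart, was the single member with its 2 highest class levels in the interneuron classes. Sst sums held 0 to 106 CPM (median 15.3) and Pvalb sums 0 to 52.7 CPM (median 24.3), whereas the medians were 0.19 CPM over striatal projection sums and 0 over excitatory sums. A single striatal projection sum stood at 57.3 CPM, above every Pvalb sum, and the next held 4.08 CPM. The class levels were 26.4 CPM in Sst and 20.1 CPM in Pvalb nuclei, against 2.45 CPM in striatal projection and 3.33 CPM in excitatory nuclei, ratios of 10.8 (Sst over striatal projection) and 7.93 (Sst over excitatory). No Kcnh2 difference passed the threshold: the fitted log2 values of striatal projection and excitatory against the interneuron classes ran from -5.31 to -4.64, with adjusted p from 0.161 to 0.256. No construct had more Kcnh2 in excitatory nuclei than in Sst (7 of 9 lower, 2 with no read in either) or Pvalb nuclei (6 of 7 lower, 1 with none). Shares of nuclei with reads were 18.4% in Sst and 21.7% in Pvalb nuclei, against 3.27% and 7.46% in striatal projection and excitatory nuclei. An antisense RNA, Gm15589, overlaps 3294 bases of Kcnh2.

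**Figure D3:**
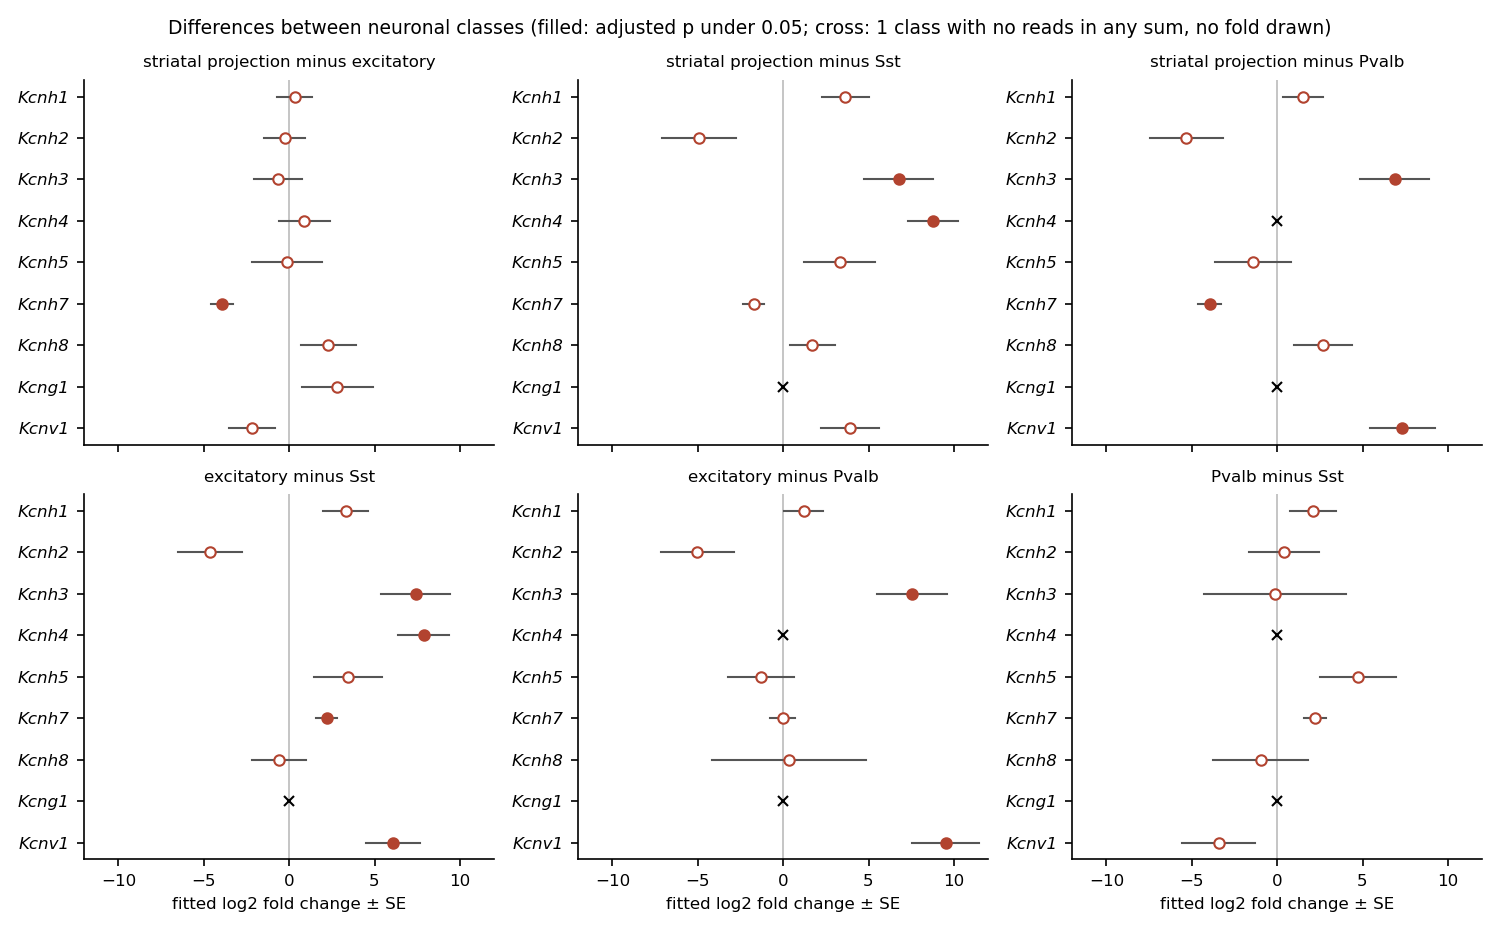
Fitted log2 fold change with its standard error (horizontal axis) for each gene in the 6 comparisons of neuronal classes; filled points have an adjusted p under 0.05, and a cross marks a gene for which 1 class held no read in any sum, so that no fold is drawn. Kcnh7 is the filled point on the negative side in striatal projection minus excitatory and minus Pvalb, and the filled points for Kcnh3, Kcnh4 and Kcnv1 are on the positive side.

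Among the silent subunits, Kcnv1 (Kv8.1, chr15:45106284-45114920, minus strand) was highest in excitatory nuclei and close to absent from Pvalb nuclei. Excitatory sums held 0 to 252 CPM (median 144) and striatal projection sums 0 to 131 CPM (median 53.7, 8 of 12 with reads). Reads were found in 4 of 12 Sst sums, up to 65.985 CPM, and in 1 of 9 Pvalb sums, at 8.598 CPM. Kcnv1 was higher in excitatory than in Sst nuclei in 8 of 9 constructs (6.10 ± 1.58, adjusted p = 0.0140) and than in Pvalb nuclei in 6 of 7 (9.52 ± 1.94, adjusted p = 0.000894). In striatal projection nuclei it was higher than in Pvalb nuclei in 5 of 6 constructs (7.34 ± 1.88, adjusted p = 0.00955). Striatal projection and excitatory nuclei differed by less than the test could call (lower in striatal projection in 7 of 9 constructs, -2.18 ± 1.34, adjusted p = 0.562). It was read in 47.01% of excitatory, 14.02% of striatal projection, 5.26% of Sst and 1.09% of Pvalb nuclei.

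Kcng1 (Kv6.1, chr2:168260117-168281736, minus strand) was read in striatal projection and excitatory nuclei, in 9.35% and 9.701% of them (8.41% and 6.72% after thinning). Its sums there held 0 to 58.4 CPM (median 20.3, 9 of 12 with reads), and the excitatory sums 0 to 31.9 CPM (median 4.63, 8 of 13 with reads), a difference that did not pass (2.81 ± 2.09 SE, adjusted p = 0.679). No Sst or Pvalb sum held a read. Among Sst nuclei 0 of 114 had one, which allows a share of up to 2.63% with 0 taken as 3 nuclei. The 98 reads of the Pvalb class came from 1 nucleus of a construct with fewer than 5 Pvalb nuclei. Over the whole class, Kcng1 was 287-fold higher in striatal projection than in Sst nuclei, taking 3 counts in Sst and reads as independent (higher in 7 of 10 constructs and at 0 in both classes in the other 3, adjusted p = 0.00357). Against Pvalb nuclei it was higher in 5 of 6 constructs (adjusted p = 0.0172). That call was kept in 6 of 12 alternatives other than leaving out 1 construct (adjusted p up to 0.643). Over all nuclei, striatal projection held 7.13 times the Kcng1 CPM of Pvalb nuclei. Between excitatory and Sst nuclei the ratio, again with 3 counts in Sst, was 79.1-fold with reads in 5 of 9 constructs, which did not pass (adjusted p = 0.108).

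Kcnb2 (Kv2.2), a partner of the silent subunits, was measured in the same sums. It held 10.4 CPM in striatal projection, 61.1 CPM in excitatory, 49.5 CPM in Sst and 10.6 CPM in Pvalb nuclei, with no called difference between the 4 classes.

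Other silent genes differed from Kcng1 and Kcnv1 in where they were read. Kcns3 (Kv9.3) held 125.7 CPM in Pvalb and 84.8 CPM in Sst nuclei, against 3.18 CPM in excitatory nuclei and 0 in striatal projection nuclei, and was called lower in both of the latter against both interneuron classes (adjusted p from 9.69e-07 to 0.000655). Kcng4 (Kv6.4) was called lower in striatal projection (no read) than in Pvalb nuclei (24.9 CPM, adjusted p = 0.0460). Kcnf1 (Kv5.1) was called higher in excitatory (73.2 CPM) than in Pvalb nuclei (7.19 CPM, adjusted p = 0.0204). Kcns2 (Kv9.2) was called higher in striatal projection (28.2 CPM) than in Sst nuclei (4.49 CPM, adjusted p = 0.00633), and Kcns1 (Kv9.1) higher in excitatory (12.99 CPM) than in Sst nuclei (0 CPM, adjusted p = 0.0158). Kcng3 held at most 0.77 CPM, Kcng2 at most 5.43 CPM and Kcnh6, another Erg gene, at most 4.05 CPM in the neuronal classes, without a call between them, and Kcnv2 was listed at 0.

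Over a list of 36 further voltage-gated potassium channel genes and accessory subunits, 28 passed the filter on low counts. In striatal projection nuclei 0 were called higher and 3 lower than in excitatory nuclei, 3 higher and 5 lower than in Sst nuclei, and 2 higher and 4 lower than in Pvalb nuclei. In excitatory nuclei 2 were higher and 3 lower than in Sst nuclei, and 3 higher and 2 lower than in Pvalb nuclei, with 0 called between Pvalb and Sst nuclei. Median log2 fold changes over the 28 genes were -0.46, -0.26, 0.62, 0.55 and 1.12 in the first 5 comparisons and 0.29 in the last. Among the genes named for a small p was Kcnc1 (Kv3.1, a channel of fast-spiking neurons and one of the Pvalb markers checked above), lower in striatal projection than in Pvalb (-4.07 ± 0.52, adjusted p = 4.04e-08) and Sst nuclei (-2.59 ± 0.46, adjusted p = 5.81e-05) and lower in excitatory nuclei than in both (-3.69 ± 0.50 and -2.21 ± 0.47). Kcnq5, a subunit of the M-current, was higher in striatal projection (4.72 ± 0.95, adjusted p = 0.000384) and excitatory nuclei (4.57 ± 0.97, adjusted p = 0.00140) than in Sst nuclei. Kcnc4 was lower in striatal projection than in excitatory nuclei (adjusted p = 0.000749), and Kcna4 (Kv1.4) was higher than in Pvalb nuclei in both (adjusted p = 9.92e-05 and 0.00282).

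Levels of different genes can be set beside each other only per length, here as CPM per kilobase of exon. On that scale Kcnh4 led the 9 genes in striatal projection nuclei (34.4), ahead of Kcnv1 (11.1), Kcnh3 (7.78), Kcnh1 (7.09) and Kcng1 (6.44). In excitatory nuclei Kcnv1 led (34.2), followed by Kcnh7 (22.8), Kcnh4 (11.2), Kcnh1 (11.1) and Kcnh3 (10.3). Kcnh7 led in Pvalb (25.7) and Sst nuclei (6.56), with Kcnh1 second in Pvalb (4.35) and Kcnh2 second in Sst nuclei (5.45). Per kilobase of the whole gene, introns included, Kcnh4 (6.96) and Kcnv1 (18.2) kept the lead in striatal projection and excitatory nuclei and Kcnh7 in Pvalb nuclei (0.80), but Kcnv1 led in Sst nuclei (1.77).

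A single nucleus rarely held reads of many of these genes. The median number of the 9 genes with reads was 3 in excitatory nuclei, 1 in striatal projection, Sst and Pvalb nuclei, and 0 in both glial classes. At least 2 were found in 80.6% of excitatory, 47.2% of striatal projection, 36.96% of Pvalb and 18.4% of Sst nuclei. Of 69 excitatory nuclei with Kcnh3 reads, 66 (95.7%) also held Kcnh7 reads, which 85.1% of all excitatory nuclei had. In striatal projection nuclei, 13 of the 20 nuclei with Kcng1 reads (65%) also held Kcnh4 reads, which 46.7% of the class had. Of those 20, 0 held Kcnh7 reads, which 45 of the 214 nuclei had. These pairs were picked from all pairs of the 9 genes after the data were seen and were not tested.

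Astrocyte and oligodendrocyte nuclei held few reads of the 9 genes. No member was found in 88.6% of astrocyte and 91.9% of oligodendrocyte nuclei. The reads that were found came from few nuclei: 98.6% of the Kcnh7 reads of astrocyte nuclei (34.7 CPM) and all 341 Kcnv1 reads of oligodendrocyte nuclei (27.6 CPM) came from 1 nucleus each. Against the mean of the 4 neuronal classes, Kcnh7 was called lower in astrocyte nuclei (adjusted p = 0.000399), 1 of 9 with 6.94% of all genes called. Kcnh7 and Kcnh1 were called lower in oligodendrocyte nuclei (adjusted p = 2.74e-06 and 0.0154), 2 of 9 with 14.9% of all genes called. Both genes were at 0 in every glial sum, of which there were 2 for astrocytes and 3 for oligodendrocytes. Over all genes the median log2 fold change was -3.13 in astrocyte and -1.96 in oligodendrocyte nuclei, and 6 and 7 of the 28 other channel genes tested were called lower there, with 0 higher. The Kcnh7 astrocyte call was lost without SYFP2-H2B-3xsmOPT (adjusted p = 0.0610), and the Kcnh1 call without SYFP2-H2B-3xU7snRNAOPT or SYFP2-H2B-U7snRNAOPT-3'box (adjusted p up to 0.0930).

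Within the striatal projection class, 104 nuclei had Drd1 of at least 20 CPM with Drd2 under 20 CPM, the pattern of direct pathway neurons, and 58 had the reverse pattern of indirect pathway neurons. Only 3 constructs had 5 nuclei of each, fewer than the 4 set as the minimum, so no test was run. The intervals of the shares given for these subgroups cover counting error over nuclei, which are not replicates. Kcnh4 held 170 CPM in the direct and 132 CPM in the indirect nuclei, with reads in 53.8% and 44.8% of them. Kcng1 held 40.97 against 19.8 CPM (12.5% and 5.17% of nuclei) and Kcnv1 66.8 against 36.1 CPM (18.3% and 8.62%), whereas Kcnh7 held 25.3 against 43.95 CPM (20.2% and 22.4%).

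Within the excitatory class, 35 nuclei had Cux2 of at least 20 CPM and Foxp2 under 20 CPM, as in superficial layers, and 25 the reverse, as in deep layers. No construct had 5 nuclei of each, so no test was run here either. Kcnh4 held 104 CPM in the superficial and 11.5 CPM in the deep nuclei, a ratio of 9.05, with reads in 48.6% (exact 95% interval 31.4 to 66.01%) and 12% (2.55 to 31.2%) of them. Kcnh7 held 453 against 296 CPM (94.3% and 76% of nuclei), and Kcnv1 129 against 89.9 CPM. After thinning to 30000 reads the Kcnh4 shares were 40% (23.9 to 57.9%) and 8% (0.98 to 26.03%), with overlapping intervals. In sums of 1 construct, Kcnh4 held 88.2 and 140 CPM in the 2 superficial sums and no read in the 2 deep ones.

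Sst nuclei were also divided by Chodl, known in cortex as a marker of long-range Sst neurons, after the data were seen. The striatal marker Drd1 was read in 56% of the Sst nuclei with Chodl and in 8.99% of those without. The region these nuclei came from was not tested, so the long-range name may not apply to them. Of the 453 Kcnv1 reads of the Sst class, 426 came from the 25 nuclei with Chodl of at least 20 CPM, where 5 nuclei had reads (60.1 CPM), against 1 of 89 other Sst nuclei (1.197 CPM). Kcnh1 was not read in any of the 25, which allows a share of up to 12%, and held 22.9 CPM in the others. Kcnh7 held 44.04 CPM in the 25 (5 of 25 nuclei) and 117 CPM in the others (42.7%).

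**Figure D4:**
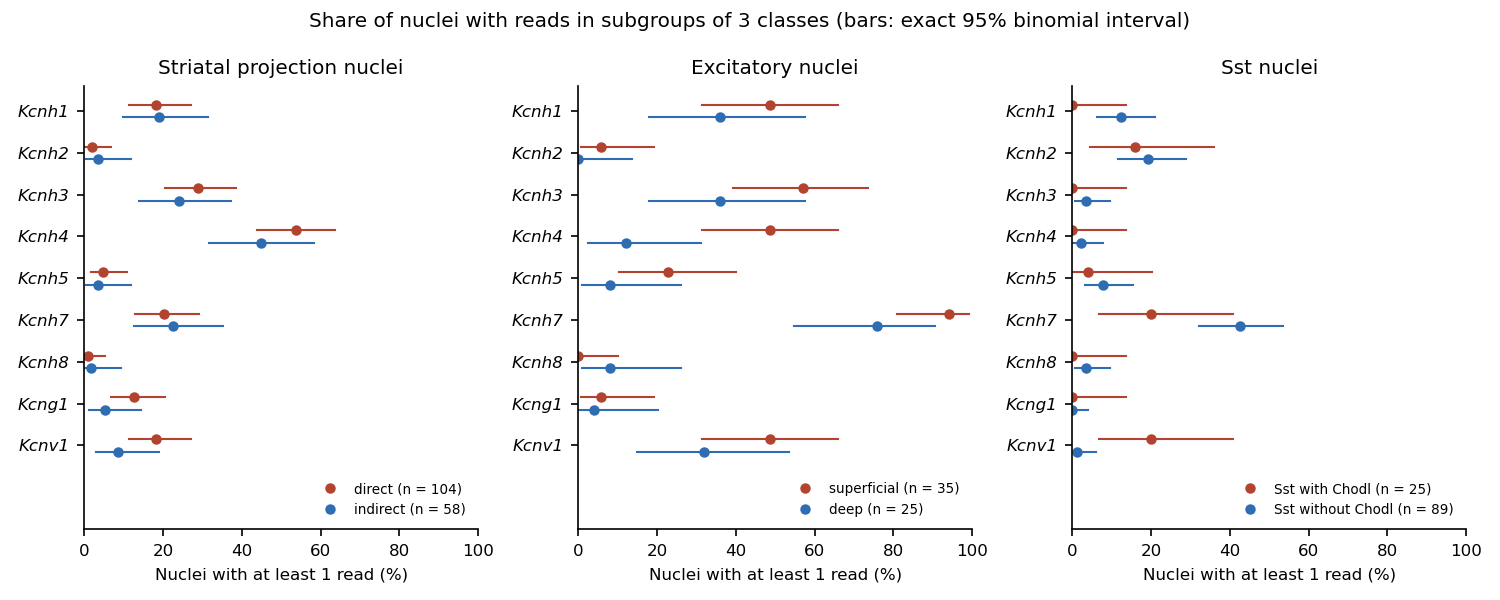
Share of nuclei with at least 1 read (horizontal axis, percent) for each gene in direct and indirect striatal projection nuclei, superficial and deep excitatory nuclei, and Sst nuclei with and without Chodl; bars are exact 95% binomial intervals. Kcnh4 reads were in 48.6% of superficial and 12% of deep nuclei, and Kcnv1 reads were in 5 of the 25 Sst nuclei with Chodl.

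The class differences were followed within the library pools. Kcnh4 held 130 and 150 CPM in striatal projection nuclei of pools S40325 and S40327, and at most 1.10 CPM in Sst and 0 CPM in Pvalb nuclei of any pool. Kcnh7 held 27.5 and 40.1 CPM in striatal projection nuclei of the same pools, against 396 and 337 CPM in excitatory and 347 and 423 CPM in Pvalb nuclei. In each of these 2 pools, striatal projection nuclei had the highest Kcnh4 and the lowest Kcnh7 level of the 4 neuronal classes, while excitatory nuclei were above Pvalb nuclei for Kcnh7 in S40325 and below them in S40327. The fitted log2 difference of Kcnh4 between striatal projection and excitatory nuclei was 1.09 within S40325 and -0.03 within S40327, without a call. With fewer sums per fit, the Kcnh7 difference between striatal projection and excitatory nuclei was not called within S40325 (-4.08, adjusted p = 0.486), within S40327 (-7.59, adjusted p = 1) or without S40327 (-3.33, adjusted p = 0.377). Kcnh4 was called between striatal projection and Sst nuclei within S40325 (8.94, adjusted p = 0.0448) and not within S40327 (10.60, adjusted p = 0.665) or without S40325 (6.92, adjusted p = 0.144).

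Over all alternatives other than leaving out 1 construct, 10 of 13 kept the Kcnh7 call between striatal projection and excitatory nuclei (adjusted p from 1.34e-11 to 1) and 10 of 13 the Kcnh4 call between striatal projection and Sst nuclei (4.47e-11 to 0.665). For Kcnv1 between excitatory and Pvalb nuclei it was 9 of 12 (3.43e-10 to 0.266), and for Kcng1 between striatal projection and Sst nuclei 8 of 13 (4.53e-43 to 1, the lowest from DESeq2 against a class in which no sum held a read). The 4 Kcnh3 calls were kept in 6 of 13, 4 of 12, 6 of 13 and 5 of 12 alternatives, in the order given above. The Kcnh7 call between excitatory and Sst nuclei was kept in 5 of 13 (0.00109 to 1).

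Levels of some genes moved with the pool. Kcnh7 in Sst nuclei ran from 38.1 CPM in S40317 to 137 CPM in S40325, Kcnh4 in excitatory nuclei from 25.002 CPM in S40317 to 64.01 CPM in S40327, and Kcnv1 in excitatory nuclei from 114 CPM in S40327 to 181 CPM in S40317. Kcnh3 in Pvalb nuclei held 31.4 CPM in S40317, all 139 reads from 1 nucleus, and at most 1.71 CPM in the other pools. The part of the pool in these levels was not tested.

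**Figure D5:**
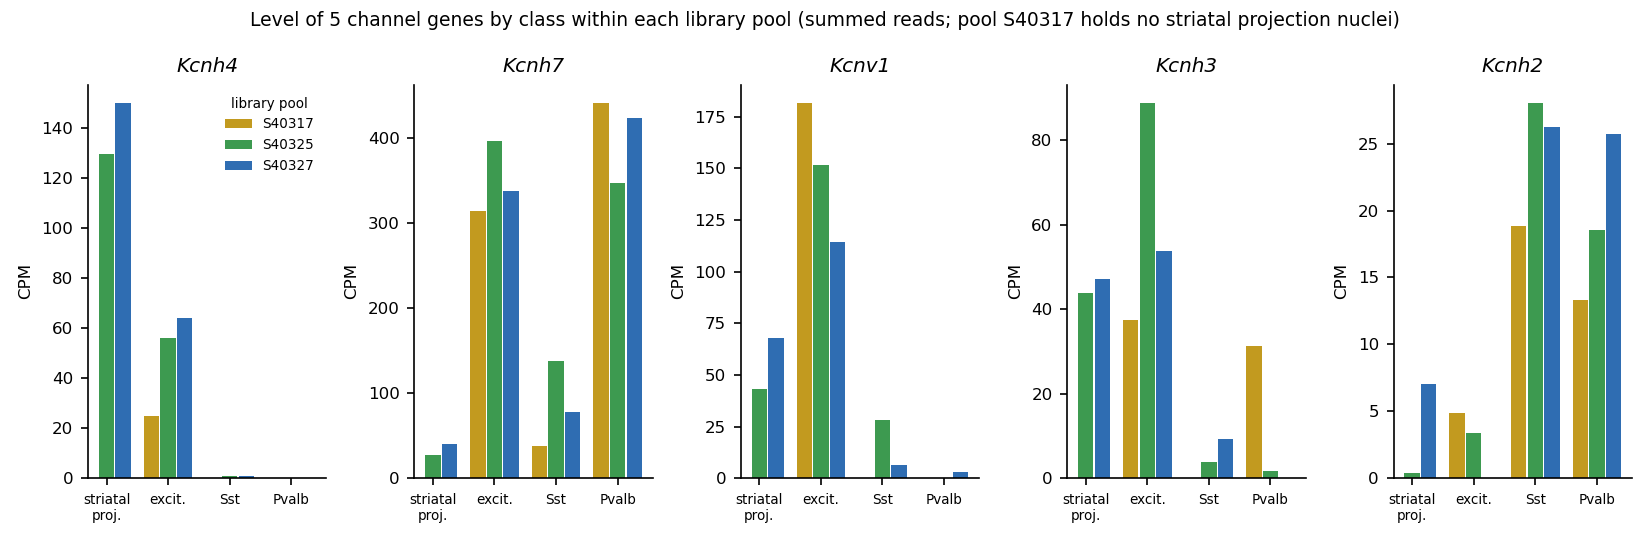
Level (CPM, vertical axis from 0) of Kcnh4, Kcnh7, Kcnv1, Kcnh3 and Kcnh2 in each neuronal class, with 1 bar per library pool; bars are summed reads over all nuclei of the class and pool, without error bars, and S40317 has no striatal projection bar. Within S40325 and S40327, Kcnh7 bars are lowest in striatal projection nuclei (27.5 and 40.1 CPM) and Kcnh4 bars highest there (130 and 150 CPM).

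The constructs themselves were compared by the position of the added sequence, after against before SYFP2-H2B, over the 6 sequences present in both positions. All kept nuclei of a construct were summed, so the mixture of classes was not held constant. The edgeR test called 0 of 8 genes tested (Kcnh8 did not pass the filter), and 0% of 13620 genes were called. At an unadjusted p under 0.05 there were 0 of the 8 and 302 of all genes, and DESeq2 called 0 of the 8 and 78 of all genes. On simulated counts of this comparison DESeq2 made 84 false calls, against 2 by edgeR. Kcnh4 held 35.1 ± 26.3 CPM (SD, n = 6) after and 18.4 ± 7.82 CPM before, and Kcnh7 164 ± 87.5 against 173 ± 40.1 CPM. Fitted differences of the 8 genes ran from -0.41 (Kcnh3) to 1.38 (Kcnh5), each with adjusted p = 1.

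For each gene, the genes with the most similar level over the 51 sums were found by Pearson correlation of log2(CPM + 1) among 16488 genes, which is a description, as sums of 1 construct share nuclei sorts and pools. Kcnh4 was most like Acvr1c, Grasp and Arhgap10 (each r = 0.86). Kcnh7 was most like Khdrbs3 (r = 0.87), with Epha5 (r = 0.80) also among its 3 nearest genes, and Kcnv1 was most like Tmem121b (r = 0.77), Enc1 (r = 0.74) and Zdhhc23 (r = 0.72). Kcnh3 was closest to Camk4 (r = 0.73), and next to Gm10115 (r = 0.71) and Kcnh4 (r = 0.70). The 3 genes nearest to Kcnh1 included Itpr1 (r = 0.72) and Kcnq5 (r = 0.71). Acvr1c was also the nearest gene to Kcng1 (r = 0.71). For Kcnh2 (Srpx2, r = 0.63) and Kcnh5 (r = 0.53 for its nearest gene) no gene came as close, and for Kcnh8 the 3 nearest genes reached 0.65 to 0.71.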

How the data were processed

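The data are read counts of 904 single nuclei of C57Bl/6J mice in 1 deposited table of 32285 genes and 2501 columns. The authors deposited whole-number counts of reads per gene. The 904 columns that match a library name were used and the other 1597 were not. The submitters' processing notes name STAR 2.7.2a and the build mm10. The counting, its annotation and its use of introns and strand are not given in the sources used here. Gene IDs were matched to GENCODE M21 for symbols and coordinates (32158 matched, 127 not). The 9 genes, the classes and all lists were chosen with earlier results of these data known.

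Groups follow the construct named in each title; 67 combinations of construct and virus label occur, 4 or 5 virus labels per construct. Counts were summed per construct and class with at least 5 nuclei (51 sums, 6 classes, 1 fit), and analysed in edgeR 4.0.16 (R 4.3.3): filterByExpr removed low genes, TMM gave the scaling, and glmQLFTest compared classes with construct as a block. P-values were adjusted by Benjamini-Hochberg over all genes, with a threshold of 0.05. The SE is the log2 fold change divided by the square root of F. Position was tested likewise with the added sequence as a block. Subgroup tests needed 4 constructs on both sides. A class with no read is set to 3 counts over the class for a ratio, which is a lower bound only if reads are independent. Shares carry exact 95% binomial (Clopper-Pearson) intervals, except that the bound given for a share of 0 takes it as 3 nuclei. Thinning drew 30000 reads per nucleus. The text names all 9 genes in each comparison, the other Eag-family, silent and Kv2 genes, the 2 further channel genes with the smallest p, and the 3 genes most similar to each member, apart from some that are not reported here. Nuclei were sorted 1 per well, and no doublet caller was run. Nuclei in 2 or more classes were left out, which cannot flag mixtures of striatal projection with excitatory or of Sst with Pvalb nuclei.

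Kept nuclei held at least 30023 reads, and counts of few reads from few nuclei limit the precision. On simulated counts the class fit (16488 genes, striatal projection against excitatory) recovered 51 of 100 genes changed by a log2 of 2 and 93 of 100 changed by 4, with 3 false calls. The position fit (13620 genes) recovered 27 and 95 of 100, with 2 false calls. DESeq2 made 45 and 84 false calls on the same counts. Every simulated gene had the same dispersion and changed genes were drawn at random, so these rates do not carry over to sparse genes. Kcnh2, at -5.31 ± 2.11 in striatal projection against Pvalb nuclei, was not called. Alternatives were no filter, RLE scaling, DESeq2 1.42.0, at least 2000 genes per nucleus, at least 10 nuclei per sum, virus labels as the sample, no construct term, doubled gates, single pools and leaving out each construct. Those fits reused the trended dispersion of the full fit and left a construct out of the comparisons in which it gave a sum on both sides. Python 3.11.15 with pandas 2.3.3, numpy 2.4.6, scipy 1.17.1 and matplotlib 3.10.9 was used.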

Additional observations from a re-analysis of the deposited data

Results flagged for a closer look

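In 27 groups of 6 or 9 sums, 5 held a sum far above the rest. Chance gives about 1 in 20 for normally distributed values, a rate that does not apply to the 3 groups below in which all other sums were 0. Among 9 Pvalb sums, Kcnh3 stood at 61.5 CPM in 3xsmOPT-SYFP2-H2B (139 reads, all from 1 of 9 nuclei), with the next at 12.9 CPM. Kcnh8 stood at 48.9 CPM in SYFP2-P2A-3XFLAG-H2B (72 reads, all from 1 of 5 nuclei) with all others at 0. Kcnv1 stood at 8.598 CPM in dTomato-H2B (28 reads, all from 1 of 13 nuclei) with all others at 0. These 3 high sums thus each rest on a single nucleus. Over all kept nuclei of the 6 constructs with the added sequence before SYFP2-H2B, Kcnh5 stood at 26.8 CPM in 3xsmOPT-SYFP2-H2B, with the next at 8.47 CPM, and Kcnh8 at 1.49 CPM in U7snRNAOPT-3'box-SYFP2-H2B, with the others at 0. Among the 69 nuclei left out for few genes, 511 reads of Kcnh3 came from 3 nuclei, while the other 8 genes had no read there, above the 3 counts that a count of 0 allows. No cause was tested.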

How the results depend on the processing

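Depth and the number of sums limit these results: many sums hold no read of a gene, the fitted fold changes against such classes exceed the ratios of the levels, and a gene at 0 is not detectable at this depth rather than absent. Of 99 counts of called genes under alternatives other than leaving out 1 construct, 62 stayed within 1.5 times the reported count and 37 did not; the cause was not tested except that single pools and larger sums have fewer samples. With DESeq2, 2 genes were called in striatal projection against excitatory, 7 in striatal projection against Sst, 7 in excitatory against Sst, 5 in excitatory against Pvalb, 2 in Pvalb against Sst, and 6 each in astrocyte and oligodendrocyte nuclei. DESeq2 made 45 false calls on the simulated counts of striatal projection against excitatory nuclei, against 3 by edgeR. With at least 10 nuclei per sum, 0 were called in striatal projection against Sst, 2 against Pvalb, 0 in excitatory against Sst and 1 against Pvalb. With virus labels as the sample, 3 were called in striatal projection against Pvalb, and with doubled gates 2 in excitatory against Sst. Without the construct term, 2 were called in Pvalb against Sst, 2 in astrocyte and 4 in oligodendrocyte nuclei, and the Kcng1 oligodendrocyte difference turned from -0.18 to 2.90 (adjusted p = 0.0271).

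Within pool S40325 the counts were 0 (striatal projection against excitatory), 1 (against Sst), 1 (against Pvalb), 0 (excitatory against Sst) and 0 (excitatory against Pvalb), and within S40327 they were 0, 0 and 0 for striatal projection against excitatory and Sst and excitatory against Sst. No class fit could be fitted within S40317. Alternatives added after seeing the data left out each pool. Without S40317 there were 2 in striatal projection against Pvalb, 1 in excitatory against Sst, 1 in excitatory against Pvalb and 1 in oligodendrocyte nuclei. Without S40325 there were 1 and 2 in striatal projection against Sst and Pvalb and 2 and 1 in excitatory against Sst and Pvalb. Without S40327 there were 0, 1 and 2 in striatal projection against excitatory, Sst and Pvalb and 0 and 1 in excitatory against Sst and Pvalb.

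Leaving out 1 construct gave 1 to 1 (9 fits) in striatal projection against excitatory, 2 to 4 (10) against Sst, 4 to 5 (6) against Pvalb, 2 to 4 (9) in excitatory against Sst, 2 to 3 (7) against Pvalb, 0 to 0 (8) in Pvalb against Sst, 0 to 1 (2) in astrocyte and 1 to 2 (3) in oligodendrocyte nuclei, and 0 to 0 for position (6 sequences). The excitatory against Sst count was 2 without SYFP2-H2B-3xBORG, SYFP2-H2B-U7snRNAOPT-3'box, U7snRNAOPT-3'box-SYFP2-H2B or dTomato-H2B. Over 1405 fold changes of single genes under the alternatives, 1 difference that was not called changed sign and was then called (Kcng1 above), and 129 changed sign without a call in either fit. Thinned to 30000 reads, the Kcnh3 share of excitatory nuclei was 36.6% and the Kcnh2 share of astrocyte nuclei 0. The direct against indirect and superficial against deep comparisons were not run under any setting, since fewer than 4 constructs had both subgroups. Classes were compared within constructs and positions within added sequences, as in the methods. Beyond these blocks, no paired analysis was possible because the replicate numbers in the titles count nuclei and pair nothing across constructs.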

Other observations

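The 117 nuclei that met no gate held 120 CPM of Kcnh7, 22.996 CPM of Kcnh2 and 14.8 CPM of Kcnh1, but 3.13 CPM of Kcnh4 and 5.47 CPM of Kcnh3. Their summed level of other interneuron markers was 1623 CPM, against 50.9 to 343 CPM in the 4 neuronal classes, with 844 CPM of Vip and 472 CPM of Adarb2. Kcnh4 reads were in 3 of the 117 and Kcnh3 reads in 3. The 92 nuclei that met 2 or more gates, of which 39 met the striatal projection and Sst gates, held 31.1 CPM of Kcnh4 (18.5% of nuclei) and 33.3 CPM of Kcnh2 (14.1%).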
